A study of Mus musculus with 8 samples.

Results

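The genes described here are the nuclear-encoded subunits of the mitochondrial respiratory chain and ATP synthase, followed through the differentiation of mouse embryonic stem cells into heart muscle cells. They were chosen by symbol alone: every gene whose name begins with Nduf, Uqcr, Cox4 to Cox8 or Atp5, and Sdha, Sdhb, Sdhc, Sdhd, Cyc1 and Cycs. The rule found 87 of the 13540 genes in the table. Of these, 38 were grouped under complex I, 4 under complex II, 9 under complex III, 18 under complex IV and 17 under ATP synthase (complex V). The last group holds Atp5sl by its symbol only, since it is a factor related to complex I assembly. One match, Cox4nb, is no subunit: it is the neighbour of Cox4i1 that the GENCODE annotation calls Emc8, a part of the endoplasmic reticulum membrane complex, and it is kept apart. Of the rest, 73 were structural subunits made in most tissues (called the common subunits below), 6 were complex IV isoforms known from particular tissues or states, and 7 were assembly, supercomplex or related factors. Cycs, Ndufs5, Ndufb4, Cox7b2 and Cox8c were not analysed here.

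Cells of the 129/Ola strain were sampled as undifferentiated embryonic stem cells (ESC, day 0), as mesoderm (MES, day 4), as cardiac precursors (CP, day 5.3) and as cardiomyocytes (CM, day 10). The labels name no genotype, allele or drug that sets the stages apart. The labels describe differentiation as aggregated embryoid bodies in serum-free medium, with VEGF, Activin A and BMP4 during reaggregation, then plating as a monolayer with VEGF, basic FGF and FGF10. Each stage had 2 libraries of poly(A) RNA, which the series text calls biological duplicates, but the deposited table gives 1 value per gene and stage. A spread between replicates could therefore not be computed, no difference below carries a test or an error between cultures, and every difference is a description of these stage values. The values are RPKM (reads per kilobase of gene and M reads, where 1 M is 1000000), so levels can be set side by side per length. Where 4 values are given without stage names, they are in the order ESC, MES, CP, CM. Steps in the low values gave read totals of 61.96 to 88.5 M per stage, and a gene of 0.5 kb at 10 RPKM then rests on 310 to 443 reads.

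The marker lists of ESC, MES and CM were highest at their own stages, whereas that of cardiac precursors was not highest in CP. The mesoderm list (T, Mesp1, Eomes and Mixl1) summed to 6.52, 297, 0.586 and 0.107 RPKM. The cardiac precursor list (Nkx2-5, Isl1, Tbx5 and Gata4) summed to 1.52, 65.3, 183 and 270 RPKM, and of its genes only Isl1 was highest in CP. Summed over Pou5f1, Nanog, Sox2, Zfp42 and Esrrb, the pluripotency list stood at 1383, 84.7, 9.70 and 2.81 RPKM in stage order. Actc1, Myh6, Myh7, Tnnt2, Tnni3 and Actn2, genes of the cardiac contractile apparatus, summed to 12.3, 9.35, 1021 and 8569 RPKM. The cultures also held markers of other cells: smooth muscle and fibroblast markers summed to 158, 5.28, 86.6 and 704 RPKM, endothelial markers to 18.6, 1.03, 173 and 79.1 RPKM and blood markers to 1.000, 1.84, 235 and 8.73 RPKM. In such mixed bulk samples a change in the number of cells of a type and a change in RNA per cell cannot be told apart, and the part of these other cells in the results below was not tested.

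Complexes I and II pass electrons from NADH and succinate to coenzyme Q, complex III hands them to cytochrome c, and complex IV reduces oxygen to water. Complexes I, III and IV pump protons across the inner mitochondrial membrane, and ATP synthase uses the returning protons to make ATP. Most subunits are encoded in the nucleus, with a small set in mitochondrial DNA, and the heart is among the tissues richest in all of them. Complex IV is unusual in that several of its nuclear subunits come in a widely made form and a second form restricted to muscle, testis or low oxygen.

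The chain as a whole was lowest in cardiac precursors and highest in cardiomyocytes. The 73 common subunits summed to 5379 RPKM in ESC, then 4815 in MES, 4109.8 in CP and 8735 in CM, which is 2.03%, 1.89%, 1.71% and 3.36% of the sum of all genes. Their median level was 43.8, 40.8, 35.5 and 74.7 RPKM in the same order. Of all 87 members, 76 (87.4%) were highest in CM, against 29.8% of all genes, and 51 (58.6%) were lowest in CP, against 10.7% of all genes. Both held for 47 members (54.0%), against 3.66% of all genes. The 47 became 37 with stages scaled to the same sum, 40 after quantile normalization and 59 when centred on the median of all genes. The share of all genes was not recounted under these settings.

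Differences were taken on log2(RPKM + 1), so that those of low genes are understated, and genes at least 2-fold apart on that scale (a difference of 1) were counted. Between ESC and MES, 1 member was higher and 1 lower by at least 2-fold, where 11.1% of all genes were higher and 11.2% lower. Between MES and CP, 3 members were higher and 1 lower, against 8.91% and 3.91% of all genes. Between CP and CM, 41 members (47.1%) were higher and 2 lower, against 11.3% and 12.8% of all genes. From ESC to CM, 22 members (25.3%) were higher and 2 lower, against 22.2% and 23.4% of all genes, so that over the whole course the share at 2-fold lay near the background for higher genes and below it for lower ones. The comparisons share stages, so a low value in CP enters both of its neighbours. Counted by any amount, 69 of 87 members were lower in CP than in MES (79.3%, against 52.4% of all genes) and 81 were higher in CM than in CP (93.1%, against 41.4%). By any amount, 38 were higher in MES than in ESC (43.7%, against 53.0%) and 78 higher in CM than in ESC (89.7%, against 48.7%).

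Among the 73 common subunits alone, none was 2-fold apart between ESC and MES or between MES and CP, 35 were higher in CM than in CP and none was lower. Their median log2 difference was -0.03 for MES minus ESC, -0.25 for CP minus MES and 0.92 for CM minus CP (a fold of 1.89), beside 0.05, -0.03 and -0.15 for all genes. The spread among them was wide, from -0.60 to 2.22 for CM minus CP. At the 2-fold line, Ndufa9 lay just inside with 1.01 and Cox5a just outside with 0.94.

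**Figure D1:**
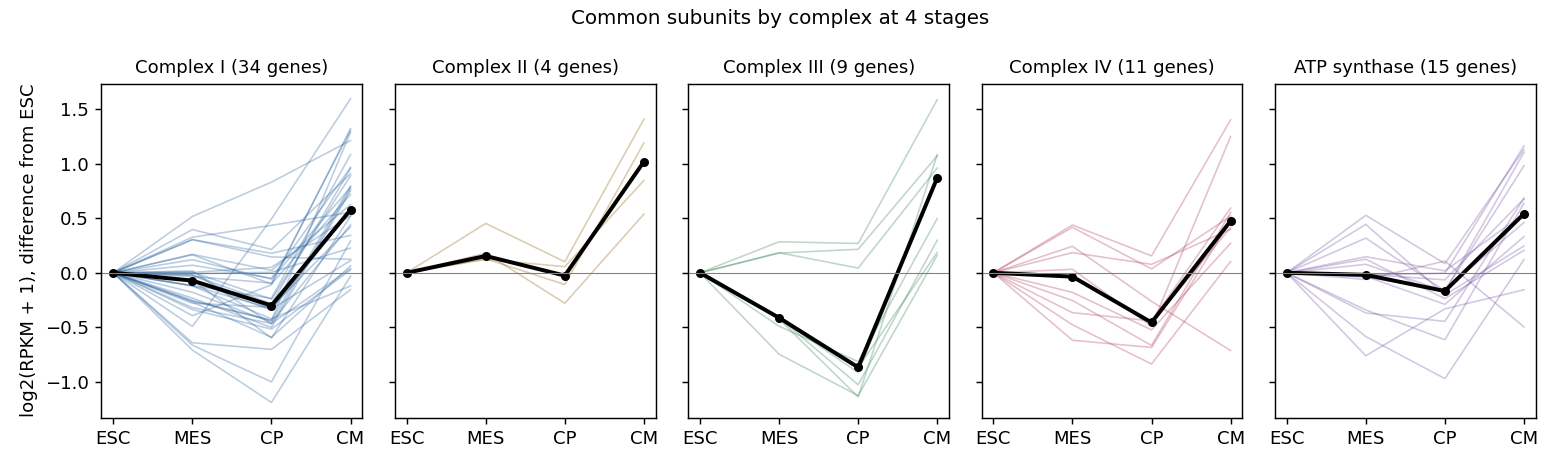
Difference of log2(RPKM + 1) from ESC (vertical axis) at the 4 stages for the common subunits of each complex; each thin line is 1 gene and the black line with points is the median of the complex, with no error bars because the table has 1 value per stage. In every complex the median is lowest in CP among MES, CP and CM and highest in CM, and the complex III median lies lowest of all in CP.

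Complex I, the NADH dehydrogenase and entry point of most electrons, had 34 common subunits, 7 of them core subunits that carry the flavin, iron-sulfur clusters or quinone site. All 7 core subunits were lowest in CP and highest in CM. Ndufv1, which holds the flavin that accepts electrons from NADH, stood at 56.3 RPKM in ESC, then 47.8 in MES, 39.5 in CP and 95.6 in CM, a log2 difference of 1.25 for CM minus CP. Ndufs7, whose iron-sulfur cluster passes electrons to coenzyme Q, stood at 41.0 RPKM in ESC, then 34.1 in MES, 30.03 in CP and 102 in CM and had the largest difference of the complex (1.72). The smallest differences among the 7 were those of Ndufs1, the large subunit with several iron-sulfur clusters, at 30.9, 24.6, 22.1 and 31.7 RPKM (difference 0.50), and Ndufv2, at 33.1, 32.6, 26.1 and 35.8 RPKM (difference 0.44). Core subunits of the same enzyme thus differed by more than 1 log2 unit in how far CM lay above CP.

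The 27 accessory subunits of complex I, which surround and stabilise the core, showed the same low point less uniformly: 17 were lowest in CP and 23 highest in CM. Ndufa6 and Ndufa2 had the highest means of the complex. Ndufa6, a small LYR-motif protein, stood at 140.3 RPKM in ESC, then 107 in MES, 129.9 in CP and 352 in CM, and its level in CP was above that in MES. Ndufa2 stood at 161, 212, 187 and 303 RPKM. A few accessory subunits were not low in CP. Ndufv3, a small subunit beside the NADH-binding module, stood at 32.4, 22.8, 46.0 and 99.9 RPKM: it was lowest in MES, already above its ESC level in CP, and had the highest CM minus ESC difference of the complex at 1.59. Ndufb11, an X-linked subunit of the membrane arm, was higher at each successive stage, at 35.8, 51.6, 64.4 and 84.2 RPKM. Ndufc2 behaved likewise, at 32.4, 40.8, 44.1 and 48.0 RPKM. At the other end, Ndufa11, also of the membrane arm, stood at 102, 65.1, 62.4 and 91.7 RPKM and was lowest of the complex's common subunits in CM minus ESC (-0.15). Over all 34, the median was -0.18 for CP minus MES and 0.87 for CM minus CP. The 14 that were at least 2-fold higher in CM than in CP were Ndufa1, Ndufa3, Ndufa6, Ndufa8, Ndufa9, Ndufb10, Ndufb8, Ndufb9, Ndufc1, Ndufs6, Ndufs7, Ndufs8, Ndufv1 and Ndufv3.

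Complex II, succinate dehydrogenase, is the only complex of the chain encoded wholly in the nucleus, and all 4 of its genes were highest in CM. Sdha, the flavoprotein that oxidises succinate, stood at 88.4 RPKM in ESC, then 100.2 in MES, 72.6 in CP and 129 in CM. Sdhb, which carries the iron-sulfur clusters, stood at 37.3, 40.7, 38.8 and 67.8 RPKM. Both catalytic subunits were higher in CM than in CP by less than 2-fold, with log2 differences of 0.82 and 0.79. The membrane anchors that bind coenzyme Q differed more: Sdhc stood at 21.7, 23.8, 20.1 and 50.8 RPKM and Sdhd at 49.0, 67.4, 52.6 and 132 RPKM, with differences of 1.30 and 1.31. All 4 were higher in MES than in ESC, with a median difference of 0.15. The medians of the other complexes for MES minus ESC lay between -0.41 and -0.02, though that of ATP synthase was 0.08 without members whose coding sequence is mostly shared with other transcripts. The complex II median CM minus ESC difference of 1.02 was the highest of the 5.

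Complex III, which oxidises coenzyme Q and reduces cytochrome c, had the largest median difference between CP and CM. All 9 genes were highest in CM, 6 were lowest in CP, and the median was -0.38 for CP minus MES (close to the -0.36 of complex IV) and 1.31 for CM minus CP, with 7 of 9 at least 2-fold higher in CM (Cyc1, Uqcr10, Uqcr11, Uqcrb, Uqcrc1, Uqcrh and Uqcrq). Cyc1, cytochrome c1, stood at 187 RPKM in ESC, then 141 in MES, 102 in CP and 213 in CM, so that its CM level was only 0.19 log2 units above ESC. Uqcrc1, a large scaffold subunit, followed the same course at 167, 119, 94.8 and 237 RPKM. Uqcrfs1, the Rieske iron-sulfur protein, stood at 73.4, 83.5, 75.7 and 144 RPKM, nearly level from ESC to CP. Uqcrh, the hinge protein that contacts cytochrome c1, did not dip below ESC either, at 35.8, 43.9, 43.4 and 109.7 RPKM, and had the highest CM minus ESC difference of the complex (1.59), whereas Uqcrq had the lowest (0.16). The small subunits Uqcr10 and Uqcr11 differed most between CP and CM: Uqcr10 stood at 128, 95.3, 67.2 and 234 RPKM and Uqcr11 at 27.0, 19.8, 11.7 and 58.3 RPKM, the latter with the largest CM minus CP difference of any common subunit (2.22). Uqcr11 shares 55.5% of its coding sequence with a processed pseudogene by the measure given further below.

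In complex IV, cytochrome c oxidase, the catalytic subunits are encoded in mitochondrial DNA, and the nuclear subunits regulate the enzyme and hold it together. Of its 11 common subunits (Ndufa4, first assigned to complex I, is counted here), 10 were highest in CM and 7 lowest in CP, and 5 were at least 2-fold higher in CM than in CP (Cox4i1, Cox6a1, Cox6b1, Cox7b and Cox8a). Cox4i1, at the regulatory ATP site, was the most abundant member of the whole set, at 551 RPKM in ESC, then 358 in MES, 342 in CP and 766 in CM. Its MES minus ESC difference was -0.62 on the log2 scale, and MES and CP were nearly level. Cox8a, a small membrane subunit, came next in the complex, at 254, 259.7, 181 and 605 RPKM, with a CM minus CP difference of 1.74. Cox5a stood at 171, 123, 95.5 and 184 RPKM, so that CM lay only 0.10 above ESC. Cox6b1, which caps the enzyme on the cytochrome c side, stood at 133, 181, 149 and 354 RPKM and had the highest CM minus ESC difference of the common subunits here (1.40). Cox7b stood at 22.8, 18.9, 13.97 and 33.9 RPKM. Cox7c was the exception, highest in MES and lowest in CM, at 6.14, 7.45, 4.95 and 3.36 RPKM, and 100% of its coding sequence occurs in other transcripts.

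In ATP synthase, 9 genes were counted as core: those of the catalytic head and rotor, the c subunits, and Atp5o, which joins the head to the peripheral stalk. Of these, 7 were at least 2-fold higher in CM than in CP (Atp5a1, Atp5b, Atp5c1, Atp5d, Atp5g1, Atp5g3 and Atp5o), and their median was 1.13 (range -0.60 to 1.27). Of the 6 accessory genes, of the rest of the peripheral stalk and the membrane part, none was, and their median was 0.53 (range 0.17 to 0.74). The ranges overlap, since the core genes Atp5e and Atp5g2 lay among or below the accessory ones. The 3 accessory genes with 50% or less of their coding sequence shared with other transcripts, Atp5j, Atp5k and Atp5j2, had differences of 0.62, 0.45 and 0.44. The catalytic beta subunit Atp5b stood at 373 RPKM in ESC, then 248 in MES, 189.9 in CP and 406 in CM, and the alpha subunit Atp5a1 stood at 420.3, 332, 274 and 654 RPKM. These were the most abundant members of the complex, and their CM minus ESC differences were far apart at 0.12 and 0.64. The rotor subunits Atp5c1 (gamma) and Atp5d (delta) stood at 38.8, 41.0, 34.5 and 84.7 RPKM and at 99.6, 98.3, 99.4 and 224 RPKM, Atp5d being level from ESC to CP and having the highest CM minus ESC difference of the complex (1.16). Their partner Atp5e (epsilon) stood at 34.4, 38.2, 34.8 and 50.5 RPKM, a CM minus CP difference of 0.52. The ring of c subunits that turns in the membrane can be made from 3 genes with the same mature protein. Atp5g3 stood at 63.2, 91.5, 67.1 and 139.6 RPKM and made up 97.2% to 98.6% of their summed RPKM at the 4 stages. Atp5g1 stood at 0.936, 0.4998, 0.421 and 2.11 RPKM and Atp5g2 at 0.903, 0.823, 1.05 and 0.349 RPKM, but all of the coding sequence of both recurs in other transcripts and their levels are uncertain. Atp5g2 was also the lowest of the complex in CM minus ESC (-0.50).

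The tissue isoforms of complex IV stood apart from the common subunits. Their summed RPKM was 40.6 in ESC, then 33.01 in MES, 65.6 in CP and 688 in CM. All 6 were highest in CM, none was lowest in CP, and 5 of 6 were at least 2-fold higher in CM than in CP, with a median difference of 3.64. They also included all 3 members at least 2-fold higher in CP than in MES (Cox6a2, Cox7a1 and Cox4i2), the only member at least 2-fold higher in MES than in ESC (Cox4i2, 1.08) and the only one at least 2-fold lower there (Cox7a1, -1.49). Reads were recovered for 5 of them. The 95% exact intervals given for these (Poisson for levels, conditional binomial for ratios) cover counting error only, since PCR copies were not marked and reads are not independent molecules.

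Cox6a2, the form of subunit 6a found in heart and skeletal muscle, stood at 0.278 RPKM in ESC (9 reads), then 0 in MES, 5.24 in CP (146 reads) and 229 in CM (8719 reads). It was near or at 0 in the first 2 stages, present in CP and abundant in CM. CM was 2034-fold the 3-read floor of 0.113 RPKM in MES, where the exact interval of 0 reads reached 0.138 RPKM. CM over CP was 43.7-fold (interval 37.1 to 51.8). Cox6a1, the form made in most tissues, stood at 131, 101, 96.2 and 198 RPKM. The share of Cox6a2 in the summed RPKM of the pair was therefore 0.212%, 0%, 5.17% and 53.6%, and Cox6a1 itself was also highest in CM. By the measure of shared sequence given further below, 32.8% of the coding words of Cox6a1 (17.3% over its whole transcript) recur in another gene, against 0% of those of Cox6a2 (6.01% over its transcript), so which of the pair was the larger in CM is uncertain.

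Ndufa4l2, a paralog of Ndufa4 known to be induced at low oxygen, stood at 7.62 RPKM in ESC, then 6.92 in MES, 11.7 in CP and 232 in CM. It stayed between 6.92 and 11.7 RPKM up to CP and was 19.8-fold higher in CM than in CP (interval 18.3 to 21.3). Ndufa4 stood at 72.4, 97.0, 74.2 and 104 RPKM, so that the share of Ndufa4l2 in the pair was 9.53%, 6.66%, 13.7% and 69.0%. Cox4i2, the form of subunit 4 known from lung and from cells at low oxygen, stood at 0.792, 2.79, 11.6 and 134 RPKM and was higher at each successive stage. Its CM level was 11.6-fold that in CP (interval 10.7 to 12.6), and its share beside Cox4i1 was 0.144%, 0.771%, 3.28% and 14.9%. Beside these, 9 of the 10 genes of a list of hypoxia-response genes (with Ndufa4l2 and Cox4i2 not in it) were at least 2-fold higher in CM than in CP (11.3% of all genes), with a median of 1.94. Among them, Car9, a carbonic anhydrase, stood at 0.540, 0.618, 2.58 and 29.0 RPKM, Ndrg1 at 5.95, 5.63, 3.86 and 62.4 RPKM, and Slc2a1, the main glucose transporter of many cells and the most abundant gene of the list, at 241, 146, 148 and 338 RPKM. The part of oxygen supply in the levels of Ndufa4l2 and Cox4i2 was not tested.

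Cox7a1, the heart and skeletal muscle form of subunit 7a, stood at 7.402 RPKM in ESC (203 reads), then 1.995 in MES (45 reads), 15.2 in CP (358 reads) and 43.2 in CM (1391 reads). Unlike the other muscle forms it was clearly present in ESC, where the exact interval was 6.42 to 8.49 RPKM, against 1.46 to 2.67 in MES. Cox7a2, the widely made form, stood at 96.7, 94.3, 70.2 and 129 RPKM, so that the share of Cox7a1 was 7.11%, 2.071%, 17.8% and 25.03%. Cox8b, a form of subunit 8 made in heart, skeletal muscle and brown fat of rodents, was at 0 RPKM in ESC, then 0.2498 in MES (5 reads), 0.0956 in CP (2 reads) and 14.8 in CM (423 reads). Its CM level was 120.0-fold the 3-read floor of ESC (0.123 RPKM), where the exact interval of 0 reads reached 0.152 RPKM. The ratio of CM to the 2 reads of CP was 155 with a counting interval of 42.6 to 1282. In CM, Cox8b made up 2.39% of its pair with Cox8a. Cox8b thus stayed far below its common form in CM, whereas the level of Cox6a2 was close to that of its partner. Of 5 skeletal muscle markers, only Acta1, which the young heart also makes, was in the table, at 25.4, 0.525, 24.4 and 259 RPKM; of 4 brown fat markers, only Cidea was, at 1.17, 0.0290, 0.0277 and 2.17 RPKM. Cox6b2, the testis form of subunit 6b, stood at 24.6, 21.1, 21.7 and 34.9 RPKM, with a CM minus CP difference of 0.66, the smallest of the 6, and its share beside Cox6b1 was 15.5% in ESC and 8.97% in CM. Germ cell markers summed to 20.03, 0.711, 0.874 and 0.350 RPKM at the 4 stages.

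**Figure D2:**
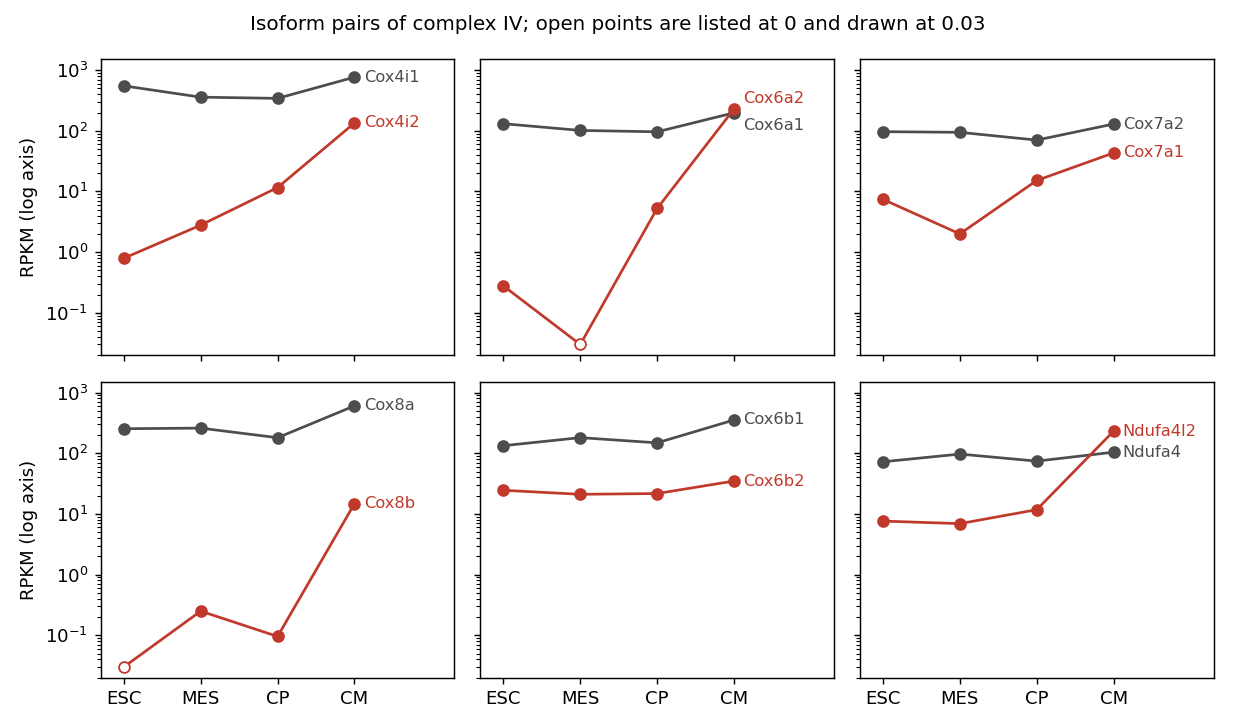
RPKM on a log axis at the 4 stages for the common form (grey) and the tissue form (red) of 6 complex IV subunits; each point is the single deposited stage value. In CM the points of Cox6a2 and Ndufa4l2 lie above those of their partners, while Cox4i2, Cox7a1, Cox8b and Cox6b2 lie below theirs at all 4 stages.

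Sequence around the annotated start sites was set beside these levels. RefSeq (GRCm38.p6) gave a window of 250 bases before to 50 after the start for 69 of the 87 members (75 windows), among them 3 tissue isoforms (Cox6b2, Cox7a1 and Cox8b). The 250 bases before the start are shown for the common forms Cox6a1 (chr5:115348959-115349208, minus strand) and Cox8a (chr19:7217617-7217866, minus strand) and for the muscle forms Cox7a1 (chr7:30183921-30184170, plus strand) and Cox8b (chr7:140900447-140900696, minus strand), because the common pair was at high levels at all stages, while the muscle pair was at 0 to 15.2 RPKM before CM. The order is 5′ to 3′ on the gene's strand, and capitals mark motif matches found on either strand.
Cox6a1: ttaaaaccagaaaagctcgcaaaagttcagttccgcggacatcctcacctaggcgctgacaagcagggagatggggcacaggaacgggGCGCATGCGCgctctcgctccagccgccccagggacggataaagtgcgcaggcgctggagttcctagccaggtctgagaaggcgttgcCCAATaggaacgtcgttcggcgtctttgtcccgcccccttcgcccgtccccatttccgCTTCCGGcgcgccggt
Cox8a: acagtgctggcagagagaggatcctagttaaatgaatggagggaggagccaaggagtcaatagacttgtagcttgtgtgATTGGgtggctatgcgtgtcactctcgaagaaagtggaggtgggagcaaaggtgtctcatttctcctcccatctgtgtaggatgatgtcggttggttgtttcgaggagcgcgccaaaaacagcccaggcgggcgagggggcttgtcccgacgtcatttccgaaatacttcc
Cox7a1: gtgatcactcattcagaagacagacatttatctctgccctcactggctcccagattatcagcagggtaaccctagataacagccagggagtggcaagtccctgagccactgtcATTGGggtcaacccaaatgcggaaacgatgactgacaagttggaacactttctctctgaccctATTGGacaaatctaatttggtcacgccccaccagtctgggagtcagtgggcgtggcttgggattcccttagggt
Cox8b: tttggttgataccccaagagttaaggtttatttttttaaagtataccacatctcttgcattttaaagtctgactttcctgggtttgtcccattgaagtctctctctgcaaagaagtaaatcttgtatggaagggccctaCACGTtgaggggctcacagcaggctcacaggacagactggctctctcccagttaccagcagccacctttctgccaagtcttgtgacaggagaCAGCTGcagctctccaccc
In Cox6a1 the capitals are the NRF1 palindrome (GCGCA followed by its own reverse complement), which begins 162 bases before the start, a CCAAT box at 74 bases before it and CTTCCGG, the reverse of the ETS core CCGGAAG, at 16 bases before it. Cox8a has ATTGG, the reverse of the CCAAT box, at 171 bases before the start, and a CTTCCGG that begins 5 bases before the start and runs past the end of the printed window. Cox7a1 has ATTGG at 137 and again at 74 bases before the start. Cox8b has CACGT, the reverse of the hypoxia core ACGTG, at 111 bases before the start and the E box CAGCTG at 19 before it. Further matches lay after the start, beyond the printed bases: CTTCCGG at base 33 in Cox8a and CACGT at base 10 in Cox7a1. In Cox8b these were the TATA box TATAAA at base 5, CAGCTG at base 17 and ACGTG at base 43. Cox6a1 is not the partner of either muscle form shown. The window of Cox7a2, the partner of Cox7a1, held none of the motifs counted below. The NRF1 palindrome of Cox6a1 was in only 5 of the 65 windows of common subunits.

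Counted over both strands and the whole window, the NRF1 palindrome was in 6 of the 75 member windows (8.0%) against 0.971% of all 32851 RefSeq windows. CCGGAAG was in 17 (22.7% against 8.86%), AAGATGGC, a YY1 motif, in 11 (14.7% against 2.75%), and AAGGTCA, a nuclear receptor site, in 6 (8.0% against 4.72%). CCAAT was in 32 (42.7% against 37.4%) and ACGTG in 20 (26.7% against 19.6%), while TATAAA was in 7 (9.33% against 13.6%) and CAGCTG in 5 (6.67% against 16.3%). None of these motifs contains another, although neighbouring matches can overlap. Members' windows held a median of 19 CpG pairs, against 7 over all windows, and the windows of Cox6a1, Cox8a, Cox7a1 and Cox8b held 32, 19, 7 and 2. None of the 3 tissue isoform windows held the NRF1, ETS, nuclear receptor or YY1 motif. In the 65 windows of common subunits the shares were 7.69%, 24.6%, 9.23% and 13.8%. Each motif was thus absent from most of those windows too, and 3 windows cannot show a difference. A match is only these letters in the window and no evidence of binding. The median GC content of the members' windows was 57.3%, against 52.7% over all windows, and its part in the motif counts was not tested.

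Assembly and related factors were less uniform: 5 of the 7 were highest in CM and 2 of these, Ndufaf1 and Atp5sl, were also lowest in CP, while 2, Ndufaf2 and Ndufaf4, were lowest in CM. Ndufaf1 to Ndufaf4 help build complex I without staying in it. Ndufaf2 stood at 16.0 RPKM in ESC, then 18.3 in MES, 11.1 in CP and 4.47 in CM, a CM minus CP difference of -1.14, one of the 2 members at least 2-fold lower there. Of its 2978 exon bases in GENCODE M21, 65.6% overlap a transcript on the opposite strand. The steps in its values gave a length of only 591 bases, so how much of the overlap was in the measured gene is not known. Ndufaf4 stood at 5.63, 7.75, 3.07 and 2.75 RPKM, the only member at least 2-fold lower in CP than in MES (-1.10). Ndufaf1 stood at 7.25, 7.70, 7.11 and 9.32 RPKM and Ndufaf3 at 18.4, 11.3, 17.0 and 23.9 RPKM. Atp5sl, a factor related to complex I assembly despite its name, stood at 12.2, 13.1, 8.02 and 22.9 RPKM, a difference of 1.41, and Atp5s at 2.46, 3.37, 3.86 and 4.68 RPKM. Cox7a2l, a supercomplex factor related to subunit 7a, was higher at each stage, at 44.8, 63.7, 86.9 and 106 RPKM. Cox4nb, the gene that is no subunit, stood at 170.5, 88.6, 56.9 and 12.6 RPKM, lower at each successive stage: CM minus CP was -2.09 and CM minus ESC -3.66. The pair lie on opposite strands, and 9.94% of the exon bases of Cox4i1 overlap Cox4nb, so reads in the overlap cannot be assigned unless strand was kept, which is not given in the sources used here.

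Subunits of one complex are needed in fixed numbers, but their RPKM differed by orders of magnitude: in CM, complex I common subunits ran from 0.901 (Ndufb2) to 352 (Ndufa6) and those of ATP synthase from 0.349 (Atp5g2) to 654 (Atp5a1). The low levels went with sequence shared with other genes. For each member, the share of 32-base words of its coding sequence that recur in transcripts of other genes (GENCODE M21, processed pseudogenes included) was counted. Matches on either strand count, so genes that overlap at the same place are included, where a read can still align to 1 place only. Atp5o, at 61.2%, shared most with the overlapping antisense gene Gm15976. Of the 13 common subunits with a mean under 10 RPKM, 12 shared over 50% of their coding words, against 3 of the 60 with a higher mean. The median of the mean RPKM was 5.47 in the 15 with over 50% shared and 59.4 in the other 58, whose lowest was Ndufc1 at 9.51. Coding words were shared in full by Atp5g1, Atp5g2, Atp5l, Cox7c and Ndufab1, the mitochondrial acyl carrier protein, whose values were 1.37, 1.92, 1.68 and 2.004 RPKM. The difference between CP and CM was also smaller in the shared genes, with a median of 0.62 (4 of 15 at least 2-fold higher) against 1.04 (31 of 58). The shared genes are mostly low, and the pseudocount understates their differences. Atp5g1, at 1.13, was 5.00-fold in RPKM, and Atp5g2, at -0.60, was 0.333-fold. The part of the pseudocount in this gap was not tested. How the authors treated reads that align to several places is not given in the sources used here, and its part in these levels was not tested. Gene length also enters RPKM. The steps in the values gave 5327 bases for Ndufb2 (299 to 425 reads per stage) and 2454 for Atp5g1, whose coding sequences hold 315 and 408 bases. For Atp5l and Atp5g2 they gave 451 and 647 bases, of which 309 and 438 would be coding. The part of length in these low levels was not tested.

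**Figure D3:**
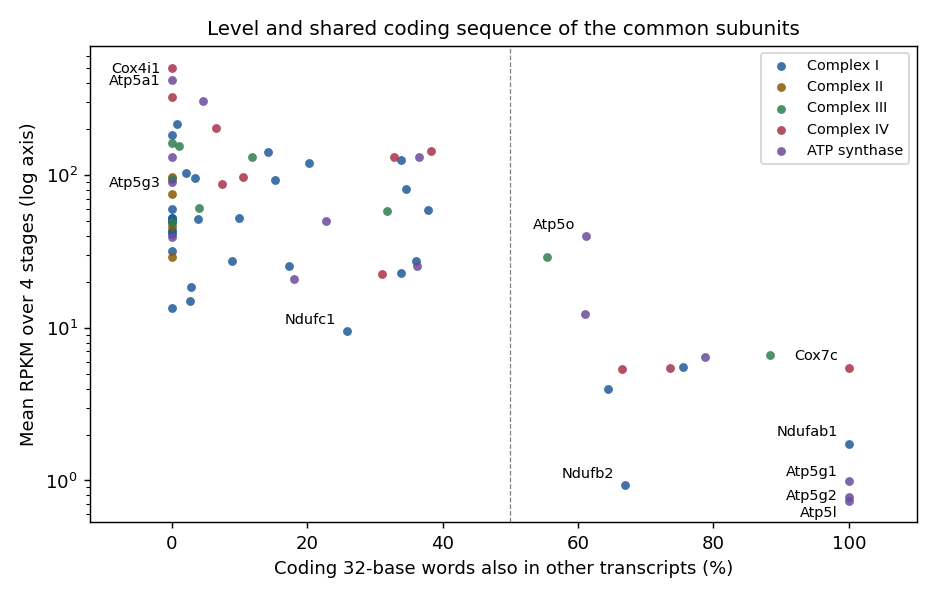
Mean RPKM over the 4 stages (log axis) against the percent of coding 32-base words also found in transcripts of other genes, for the 73 common subunits coloured by complex. To the right of the dashed line at 50% the 15 genes have a highest mean of 39.6 RPKM (Atp5o), and to its left the 58 genes begin at 9.51 RPKM (Ndufc1).

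The partner genes in mitochondrial DNA showed part of the same course. Of the 13 mitochondrially encoded subunits 7 were in the table, and all 7 were lower in CP than in MES (median -0.48), 5 were higher in CM than in CP (median 0.54) and none was 2-fold apart. Only 3 of the 7, mt-Co1, mt-Nd5 and mt-Nd6, were highest in CM. mt-Co1, the catalytic subunit of complex IV, stood at 2062, 1461, 1337 and 2496 RPKM, and mt-Nd6, of complex I, at 249, 318, 228 and 359.9 RPKM. Another 3 were higher in ESC than in CM: mt-Nd1 at 939.6, 861, 519 and 588 RPKM, mt-Nd4 at 344, 343, 254 and 237 RPKM, and mt-Cytb, the mitochondrial subunit of complex III, at 1178, 1193, 816 and 747 RPKM. All 9 nuclear subunits of complex III were highest in CM. The libraries were made from poly(A) RNA, and how evenly it captures mitochondrial transcripts was not tested.

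The citric acid cycle, which supplies the NADH and succinate, came closest to the subunits. Of its 17 genes (with pyruvate dehydrogenase), 6 were at least 2-fold higher in CM than in CP and none lower, with a median of 0.85. Over all genes 11.3% were higher and 12.8% lower, the background for the counts of this and the following lists. Idh3a, of isocitrate dehydrogenase, stood at 67.1, 33.3, 21.3 and 77.8 RPKM, and Mdh2, malate dehydrogenase and the most abundant, at 164, 104, 80.8 and 141 RPKM. Of 7 genes for nucleotide and phosphate carriers and outer membrane channels, 2 were higher: Slc25a4, the heart and muscle ADP/ATP carrier, at 104, 135, 203 and 455 RPKM, and Vdac1, the main outer membrane channel, at 159.6, 122, 117 and 266 RPKM. The phosphate carrier Slc25a3 stood at 277, 219, 196 and 299.8 RPKM. Of 13 genes of coenzyme Q synthesis 2 were higher (median 0.25): Adck3, a kinase-like protein of that pathway, at 5.79, 2.41, 1.80 and 26.8 RPKM, and Coq9 at 21.3, 13.7, 17.2 and 66.4 RPKM.

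Genes that build the complexes, listed together with some accessory parts of ATP synthase, had medians nearer to 0 than the subunits. Of 9 further complex I assembly factors 1, Ecsit, was at least 2-fold higher in CM than in CP, at 31.4, 15.2, 12.04 and 30.8 RPKM, a share near the 11.3% of all genes, and the median was -0.01. Oxa1l, which inserts subunits into the inner membrane and was the most abundant of these, stood at 52.3, 57.1, 53.5 and 105 RPKM. Of 18 genes for complex IV assembly and copper delivery none was 2-fold apart and the median was 0.09. There, Cox10, of heme A synthesis, stood at 11.3, 11.9, 7.81 and 14.2 RPKM, 2310016M24Rik at 28.7, 23.8, 30.7 and 59.0 RPKM and Ccdc56 at 39.7, 51.2, 45.8 and 38.9 RPKM. Of 7 genes for assembly, inhibition and accessory parts of ATP synthase none was 2-fold apart and the median was 0.38, with 1110001J03Rik at 18.5, 14.4, 18.1 and 31.7 RPKM, Usmg5 at 0.954, 1.07, 0.843 and 1.98 RPKM and 2010107E04Rik at 54.0, 79.9, 68.9 and 102 RPKM. Usmg5 and 2010107E04Rik, with differences of 0.69 and 0.56, are accessory parts of the enzyme, so this list does not hold builders alone.

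**Figure D4:**
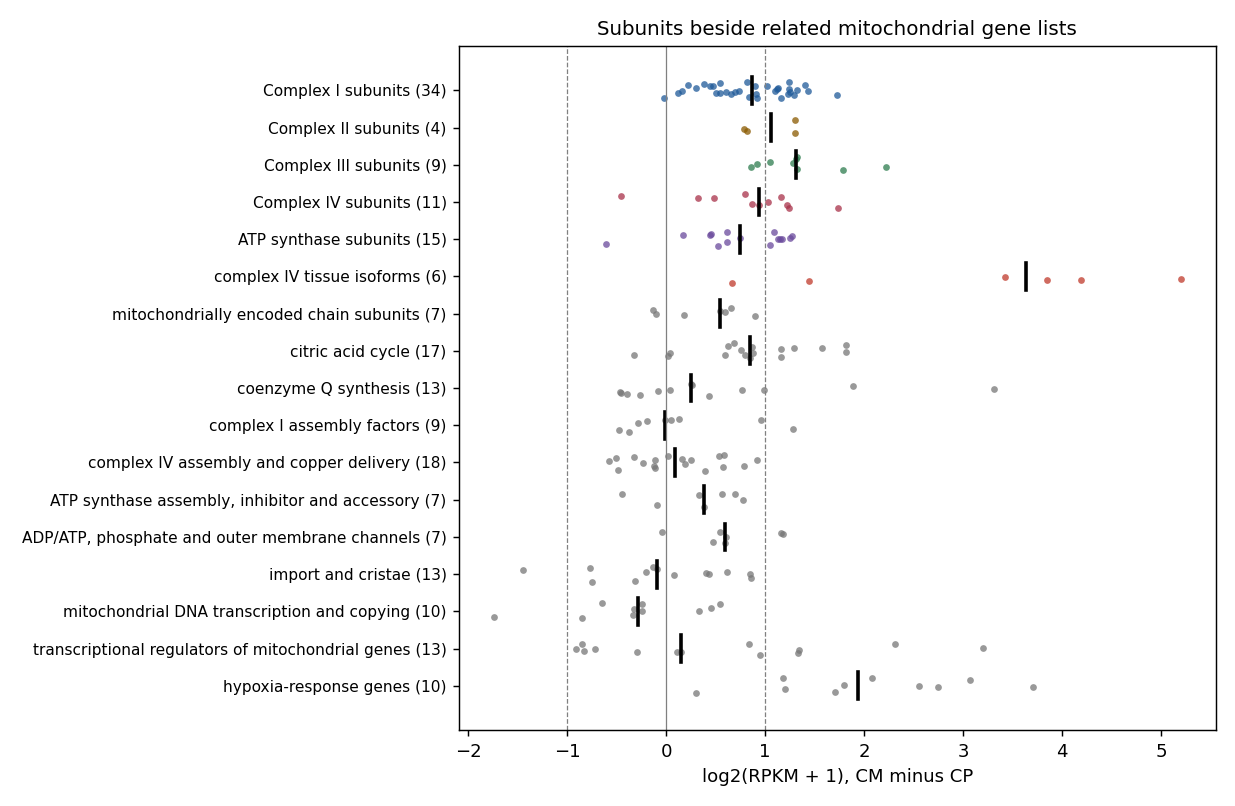
Difference of log2(RPKM + 1) between CM and CP (horizontal axis) for the common subunits of each complex, the tissue isoforms and related gene lists; each point is 1 gene, the black bar is the median, dashed lines mark 2-fold, and numbers in brackets are genes in the table. The medians of the 5 complexes lie between 0.74 and 1.31 and that of the tissue isoforms at 3.64, while those of complex I and complex IV assembly factors lie at -0.01 and 0.09.

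Transcriptional regulators of mitochondrial genes lay on both sides. Ppargc1a and Ppargc1b, coactivators that raise expression of mitochondrial genes, were lowest before CM: Ppargc1a stood at 0.00424, 0.00516, 0.696 and 7.40 RPKM and Ppargc1b at 0.576, 1.59, 0.658 and 14.3 RPKM. Esrrg, an orphan nuclear receptor of oxidative muscle, stood at 0.00855, 0.208, 3.98 and 11.5 RPKM, and Esrra, its relative, at 4.47, 4.33, 5.10 and 10.8 RPKM. Nrf1, the factor that binds the palindrome shown in Cox6a1, was lower at each stage, at 8.58, 7.82, 6.24 and 3.01 RPKM, as was the coactivator Pprc1, at 46.6, 35.01, 16.8 and 9.04 RPKM. Gabpa, which binds the ETS core, stood at 21.7, 13.6, 10.2 and 11.1 RPKM, and Yy1, the most abundant of the list, at 46.9, 55.2, 44.7 and 36.3 RPKM. Of the 13 genes in the table, 4 were at least 2-fold higher in CM than in CP (Ppargc1a, Ppargc1b, Esrrg and Esrrb) and none lower, with a median of 0.15. Esrrb, also in the pluripotency list, stood at 85.2, 0.194, 0.337 and 2.39 RPKM, so its CM level was far below ESC (CM minus ESC -4.67). From ESC to CM, 5 of the 13 were higher and 4 lower, against 22.2% and 23.4% of all genes. The levels of these regulators are set beside the subunits as measured, and whether they act on them was not tested.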

How the data were processed

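Per the labels' protocols, poly(A) RNA was fragmented and PCR-amplified, and an Illumina GAIIx read the libraries. Novoalign 2.07.00 and the build mm9 are named in the submitters' processing notes. The counter, the annotation, the handling of reads with several alignments and how the libraries of each stage were merged are not stated in the sources used here. The unit is RPKM as deposited by the authors, per the file headers, with 1 column per stage and no replicate columns, and every gene in the table exceeds 1 RPKM at 1 stage or more, so all 87 members pass.

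Differences were computed on log2(RPKM + 1) with numpy 2.4.6 and pandas 2.3.3 (Python 3.11.15), and genes at least 2-fold apart on that scale were counted beside the same count over all 13540 genes. No test was possible. Named are core subunits, isoform pairs, the highest and lowest members of each complex, every member at least 2-fold apart between neighbouring stages, and of each related list the 2 largest differences and the most abundant gene; Ndufv2, Ndufb2, Ndufb11, Ndufc2, Ndufab1, Ndufaf1, Ndufaf3, Atp5e, Atp5l, Atp5s, mt-Cytb, mt-Nd1, mt-Nd4, mt-Nd5, Stoml2, Tfb2m, Polg2, Timm44, Opa1, Esrra, Esrrg, Nrf1, Pprc1, Gabpa and Cyct were chosen after their values were seen. Some genes that this rule names are not reported here. The members and lists were chosen with earlier results of these data known.

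Depth came from 1807 low genes: with 1 depth ratio per stage, 58.8% fitted whole multiples of 1 step (relative tolerance 1e-06), against 0.719% with wrong ratios. Absolute depth used exon lengths of GENCODE M21, and 25.5% of 988 genes lay within 0.1% of it. Reads are the smallest integers in the ratio of the values, recovered for 17 members. The exact intervals (95%, Poisson for levels and conditional binomial for ratios) and the floor of 3 reads used scipy 1.17.1. The depth recovery was tested on simulated data. Promoter windows are of GRCm38.p6 and no coordinates of mm9 were used.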

Additional observations from a re-analysis of the deposited data

How the results depend on the processing

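With 1 value per stage, the spread between cultures is unknown for every result, and depth limits Cox8b and Cox6a2 before CM. No paired analysis was possible because the table has 1 column per stage and no replicate columns; leaving out single replicates was not run for the same reason. Of 380 alternative values over 12 settings, 346 stayed within 1.5 times (counts) or 0.25 log2 units (medians and differences). No median or difference changed sign, and counts cannot. Many of the 380 could not move, so 346 overstates the stability. Complex medians never held the assembly factors, tissue isoforms or Cox4nb that some settings leave out. Shares within a pair do not depend on the scale of a stage. The median of all genes for CM minus CP was -0.15, and medians relative to it are larger. Over all settings the CM minus CP median ran from 0.81 to 0.98 in complex I, 0.96 to 1.17 in complex II, 1.21 to 1.43 in complex III, 0.70 to 1.10 in complex IV and 0.71 to 1.05 in complex V, where 1.05 came from leaving out members with over 50% shared coding words; CP minus MES medians stayed below 0 in all 5. The values beyond these limits were that complex V median, small counts, counts at other minimum folds and the CM minus CP difference of Cox8b, which rests on 2 reads in CP and was 3.85 as reported, 6.25 and 4.68 with pseudocounts of 0.1 and 0.5, and 5.37 with stages scaled to the same sum. For each the cause was not tested unless the setting removes genes. With a pseudocount of 0.1, MES against ESC gave 2 higher and 3 lower, CP against MES 5 higher, and CM against ESC 4 lower; with 0.5, MES against ESC gave 2 lower. Stages scaled to the same sum gave 3 lower in MES than in ESC, and centring on the median of all genes gave 0 higher and 2 lower there. Without assembly factors, counts of lower members were 0 for CP against MES, 1 for CM against CP and 1 for CM against ESC. Without tissue isoforms, no member was 2-fold apart between ESC and MES (0 higher, 0 lower) and 0 were higher in CP than in MES. At 1.5-fold, 9 were lower in MES than in ESC, 5 higher and 7 lower in CP than in MES, and 43 higher and 4 lower in CM than in ESC; 61 were then higher in CM than in CP. At 4-fold, 0 were apart between ESC and MES, 0 were lower in CP than in MES, 5 were higher and 1 lower in CM than in CP, and 5 higher and 1 lower in CM than in ESC. Without Cox4nb, 1 member was lower in CM than in CP and 1 lower than in ESC; this setting and that on shared coding words were chosen after seeing the data.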

Other observations

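Genes that maintain mitochondrial DNA and import proteins were described by the same counts. Of 10 genes for transcription and copying of mitochondrial DNA, 1 was at least 2-fold lower in CM than in CP and none higher (median -0.29), and 4 were at least 2-fold lower in CM than in ESC (median -0.86). Over all genes 12.8% were lower in CM than in CP and 23.4% lower in CM than in ESC by that fold. Tfb2m and Polg2 were highest in CM. Polg, the catalytic subunit of the mitochondrial DNA polymerase, stood at 25.2, 45.0, 39.6 and 11.1 RPKM in stage order from ESC to CM. Ssbp1, which coats single-stranded mitochondrial DNA, stood at 7.43, 6.63, 6.999 and 3.43 RPKM. Of 13 genes of protein import and cristae shape, all 13 were lower in CP than in MES by any amount (median -0.42), against 52.4% of all genes, and 4 were at least 2-fold lower in CM than in ESC. Tomm20, an import receptor of the outer membrane, stood at 118, 108, 104 and 37.7 RPKM, and Tomm40, the import pore, at 166, 102, 52.5 and 47.9 RPKM, whereas Chchd3, of the cristae junctions, was highest in CM at 21.7, 23.1, 17.0 and 31.7 RPKM, as were Timm44 and Opa1. These values come from the same 4 stage columns, carry no test, and were not tested for any relation to the subunits.

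Among the smaller lists, none of the 3 complex II and 5 complex III assembly factors in the table was 2-fold apart between CP and CM (medians -0.34 and 0.22). Of the first, Sdhaf2 stood at 15.0, 18.1, 12.9 and 12.1 RPKM, Acn9 at 1.16, 1.13, 1.40 and 0.895 RPKM and 1110058L19Rik at 7.02, 6.81, 8.30 and 5.88 RPKM. Of the second, Uqcc stood at 3.67, 5.26, 4.11 and 6.69 RPKM, Ttc19 at 4.97, 3.83, 4.25 and 5.45 RPKM and AI462493 at 34.0, 31.2, 33.0 and 38.6 RPKM. Of 4 genes grouped as supercomplex factors with testis cytochrome c, Higd1a was higher in CM, at 5.12, 6.13, 5.02 and 13.04 RPKM, Higd2a stood at 48.4, 44.0, 48.2 and 86.0 RPKM, Stoml2 was lowest in CM, at 26.3, 28.4, 19.6 and 11.7 RPKM, and Cyct, the testis form of cytochrome c, was found mainly in ESC, at 2.33, 0, 0.0236 and 0.0172 RPKM. Of 3 uncoupling proteins in the table none was 2-fold apart (median -0.18), with Ucp2 at 20.3, 10.99, 12.3 and 16.5 RPKM and Slc25a27 at 2.51, 4.56, 4.47 and 3.67 RPKM.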
